A study of Mus musculus with 16 samples.

Results

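Cholesterol synthesis was followed through 8 genes in the mouse macrophage line RAW264.7: Srebf2, which encodes the transcription factor SREBP2, and 7 of its target genes, Insig1, Hmgcs1, Idi1, Fdft1, Sqle, Lss and Cyp51. They were taken by symbol from an RNA-seq table of 21965 genes, and each symbol matched 1 row. The 16 libraries formed 4 groups of 4. One group received 50 ug/ml oxidised low-density lipoprotein (oxLDL) together with tirzepatide, a peptide agonist of the GIP and GLP-1 receptors, at 100 nmol/ml as the labels write it (the combination group). The other groups received 50 ug/ml oxLDL alone, tirzepatide alone at 100 nmol/ml, or vehicle (control). All groups are the same line, with no genetic change named in the labels used here, so they stand for 1 transformed macrophage line and not for foam cells of an artery. The labels used here give no treatment time, nor whether replicate libraries were grown as separate cultures. Every p-value therefore measures the spread between these libraries, which may be technical.

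SREBP2 is made as a membrane protein of the endoplasmic reticulum, where its partner SCAP senses cholesterol. When sterol is plentiful, INSIG proteins hold SCAP and SREBP2 back; when sterol is scarce, the complex moves to the Golgi, proteases release the active factor, and it switches on the genes of cholesterol synthesis, Insig1 and its own gene Srebf2 among them. Macrophages take up oxLDL through scavenger receptors, hydrolyse its cholesteryl esters in lysosomes and store, export or oxidise the cholesterol, and oxysterols in turn activate the LXR receptors. Transcript levels do not show how much SREBP2 was cleaved.

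SREBPs are known to bind short elements close to the start sites of their targets, together with NF-Y and Sp1. The windows printed below are the 250 bases before the RefSeq start of Srebf2, the one gene whose transcript passed a test, of Hmgcs1, whose window holds the full sterol-element core searched for, and of Insig1, whose window holds an E-box. They are on the forward strand of GRCm38.p6 at chr15:82147019-82147268, chr13:119690101-119690350 and chr5:28071162-28071411, in that order of genes, and capitals mark every match on either strand to the motifs described after them.
Srebf2: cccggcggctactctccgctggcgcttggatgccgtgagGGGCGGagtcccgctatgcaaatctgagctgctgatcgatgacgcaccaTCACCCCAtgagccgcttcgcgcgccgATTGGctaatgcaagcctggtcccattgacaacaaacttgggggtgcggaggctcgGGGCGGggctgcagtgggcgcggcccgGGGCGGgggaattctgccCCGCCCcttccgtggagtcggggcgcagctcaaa
Hmgcs1: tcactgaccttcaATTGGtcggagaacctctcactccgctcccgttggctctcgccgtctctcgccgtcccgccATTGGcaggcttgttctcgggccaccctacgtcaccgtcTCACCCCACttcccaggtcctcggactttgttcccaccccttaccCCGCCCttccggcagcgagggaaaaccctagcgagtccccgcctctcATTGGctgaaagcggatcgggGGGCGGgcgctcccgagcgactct
Insig1: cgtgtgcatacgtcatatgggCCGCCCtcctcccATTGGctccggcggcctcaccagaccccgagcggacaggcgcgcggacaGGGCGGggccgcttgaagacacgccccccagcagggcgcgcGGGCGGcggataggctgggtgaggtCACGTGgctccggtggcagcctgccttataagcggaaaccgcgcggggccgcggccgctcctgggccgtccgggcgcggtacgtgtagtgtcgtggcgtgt

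The RefSeq promoter table held windows for 6 of the 8 genes, Srebf2, Insig1, Hmgcs1, Idi1, Lss and Cyp51. A set of 4 motifs was searched on both strands over the same 250 bases in 32851 windows. The sterol regulatory element core TCACNCCAC was found in the Hmgcs1 window, 137 to 129 bases before the start, and in 1.053% of all windows. A shorter form, TCACNCCA, which lies inside that core and was added after the windows had been seen, was also found in the Srebf2 window, 162 to 155 bases before the start, and in 3.674% of all windows. CCAAT, the box bound by NF-Y, a common partner of SREBPs, was in 6 of 6 windows against 33.85% of all windows. GGGCGG, the Sp1 box, was in 6 of 6 against 32.74%. The E-box CACGTG was in the Insig1 window and in 6.021% of all windows. A match is a run of letters and not a shown binding site.

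Each library held between 15877278 and 17336019 estimated gene counts, with 12954 to 13276 genes above 0, and the 8 genes had between 116 and 3712 counts per library. All 10 macrophage markers were above 0 in every library, with a summed level of 21446.7 to 23724.4 TPM, a level scaled for transcript length and library depth, in the combination group, 21871.2 to 23185.8 with oxLDL, 20397.1 to 21294.3 with tirzepatide and 17118.5 to 18413 in control. Most of that sum was 1 gene, Lyz2, and the other 9 markers summed to 2188.79 to 2391.56 TPM in the combination group, 2351.79 to 2513.41 with oxLDL, 2192.51 to 2428.05 with tirzepatide and 1891.56 to 2296.05 in control. Of 10 hepatocyte markers, 6 were at 0 in every library and the sum was at most 0.553 TPM. Transcripts of pancreatic acinar cells were present at low level: 20 of 22 listed markers had a row, 5 of them were above 0 in every library, and they summed to 8.84 to 61.0 TPM in the combination group, 7.28 to 40.4 with oxLDL, 8.85 to 67.3 with tirzepatide and 24.4 to 320 in control. The share of counts from mitochondrial genes was 8.10 to 10.5% in the combination group, 7.69 to 9.32% with oxLDL, 8.18 to 8.67% with tirzepatide and 8.32 to 11.2% in control, and control library 1 had the highest share of all. The called changes against control are therefore also given without control libraries 1 and 2.

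Srebf2 (ENSMUSG00000022463) was the most abundant of the 8 genes per transcript length, with a mean of 72.5 TPM over the 16 libraries. It was the only one of the 8 called in the fit of all 16 libraries. It measured 54.9, 66.8, 64.7 and 60.8 TPM in the 4 combination libraries, 72.1, 64.6, 71.9 and 73.7 TPM with oxLDL, 71.9, 69.8, 82.5 and 87.0 TPM with tirzepatide and 63.9, 76.2, 88.2 and 90.1 TPM in control. The means were 61.8 ± 5.25, 70.6 ± 4.06, 77.8 ± 8.24 and 79.6 ± 12.2 TPM in that order of groups (SD, n = 4 each). Every combination library lay below every tirzepatide library, as held for 4.4% of all tested genes; against control, the combination and oxLDL libraries overlapped through control library 1, the lowest of its group. Of the neighbours in the order of means, only oxLDL and the combination differed by more than the larger of their SDs.

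The test used the counts of all 16 libraries in one edgeR quasi-likelihood fit, with p-values adjusted by Benjamini-Hochberg over 11319 genes and a call at an adjusted p under 0.05. Srebf2 was lower in the combination than in control, with a log2 change of -0.42 (SE 0.07, adjusted p = 0.000908), and lower in the combination than with tirzepatide alone, -0.30 (SE 0.07, adjusted p = 0.0376). It was also lower with oxLDL than in control, -0.25 (SE 0.07), at an adjusted p of 0.0497 by edgeR that lies at the edge of the threshold. A smaller transcript pool can come from less RNA per cell or from fewer cells that make it, and bulk libraries cannot tell these apart.

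The fall in the combination against control passed under every alternative run, including every library left out in turn, where the log2 change stayed between -0.49 and -0.36 for Srebf2. The call for oxLDL against control was lost when any 1 of 11 libraries was left out, with an edgeR adjusted p for Srebf2 of 0.0503 to 0.167; these were combination libraries 3 and 4, oxLDL libraries 1, 2 and 3, tirzepatide libraries 1, 2 and 3, and control libraries 2, 3 and 4. The call for the combination against tirzepatide was lost without any 1 of 9, at an adjusted p of 0.052 to 0.195: combination libraries 1, 3 and 4, oxLDL libraries 2 and 3, tirzepatide libraries 2, 3 and 4, and control library 2. Srebf2 stayed lower in all of these fits.

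In the control and combination groups, Srebf2 was lowest in the library with the highest mitochondrial share. In CPM, counts scaled for library depth only and here after TMM scaling, control library 1 had 169.7 CPM of Srebf2 at a mitochondrial share of 11.2%, against 197.1 at 9.53%, 217.2 at 8.39% and 212.8 at 8.32% in the other controls. Combination library 1 had 129.3 at 10.5%, against 158.5 at 9.37%, 158.6 at 8.38% and 151.1 at 8.10% in the others of that group. TPM and CPM did not rank the Srebf2 libraries alike. For oxLDL, library 1 had 72.1 TPM, near the top of its group, but 156.4 CPM, the lowest of its group. Mean CPM was 149.4 in the combination group, 167.6 with oxLDL, 183.6 with tirzepatide and 199.2 in control, the same order as in TPM. In CPM every combination library lay below every control library. The share of all tested genes that did so in CPM was not counted. With the mitochondrial share as a covariate, the log2 change of Srebf2 was -0.34 for oxLDL against control (edgeR adjusted p = 7.8e-05), -0.22 for the combination against tirzepatide (adjusted p = 0.013) and -0.44 for the combination against control (adjusted p = 5.48e-07). Without control libraries 1 and 2, which hold the highest mitochondrial shares of their group, the values for Srebf2 were -0.37 for oxLDL (adjusted p = 0.00567) and -0.53 for the combination (adjusted p = 9.41e-05), both against control. With the acinar share of counts as a covariate, Srebf2 gave -0.32 for oxLDL against control (adjusted p = 0.0242), -0.32 for the combination against tirzepatide (adjusted p = 0.016) and -0.48 for the combination against control (adjusted p = 0.000464).

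**Figure D1:**
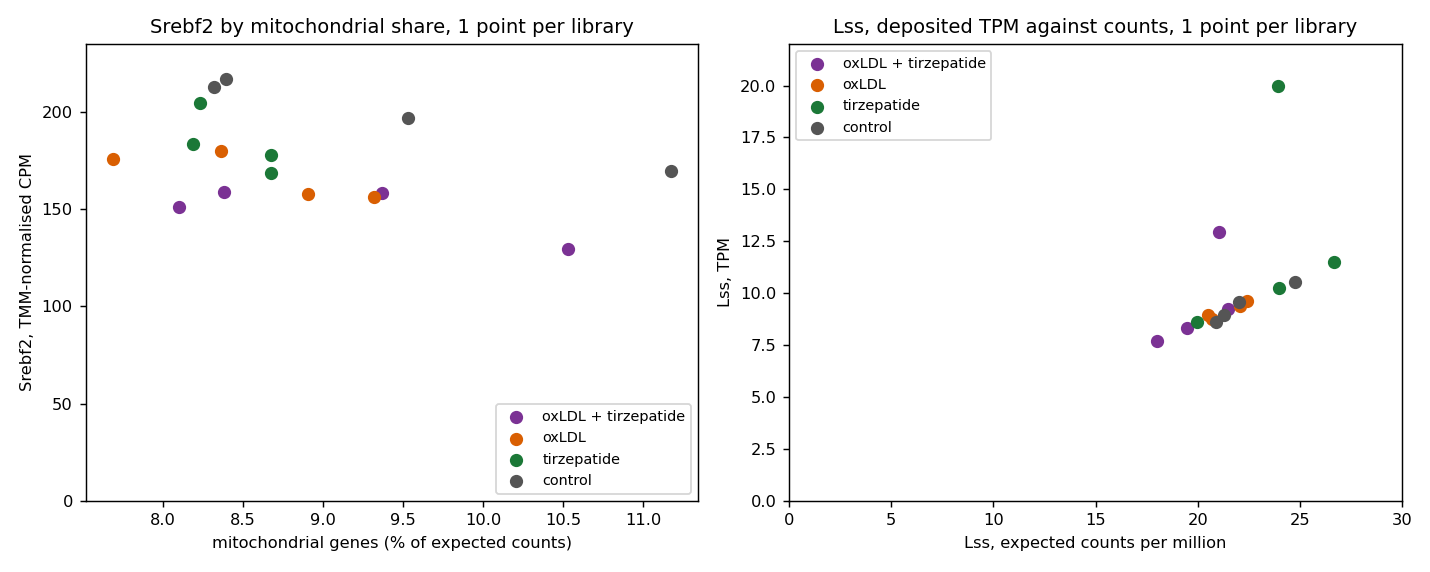
The left panel plots Srebf2 CPM after TMM scaling against the percentage of counts from mitochondrial genes, 1 point per library coloured by group. The combination libraries lie between 129.3 and 158.6 CPM, below every tirzepatide and control library. How many of all tested genes were separated in this way in CPM was not counted. The right panel plots Lss TPM against Lss CPM without TMM scaling; tirzepatide library 4 and combination library 3 lie above the other 14 libraries at a similar CPM.

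Tirzepatide itself gave no call on Srebf2. Against control its log2 change was -0.12 (SE 0.07, edgeR adjusted p = 0.408), and the combination against oxLDL gave -0.17 (SE 0.07, adjusted p = 0.453), with a 95% interval of -0.33 to -0.0045 before adjustment. In the fit with the mitochondrial share as a covariate, tirzepatide against control reached -0.22 for Srebf2 (adjusted p = 0.00927). The difference between the oxLDL effect with and without tirzepatide was -0.05 (SE 0.10, adjusted p = 0.899 by edgeR), with a 95% interval of -0.27 to 0.18, so a difference between the effects was not detected, which does not show that they were equal.

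Insig1 (ENSMUSG00000045294), the sterol-dependent anchor that keeps SCAP and SREBP2 in the endoplasmic reticulum, was the least abundant of the 8, with a mean of 8.88 TPM. It measured 9.16, 8.003, 9.19 and 5.34 TPM in the combination group, 6.76, 6.91, 10.7 and 9.004 TPM with oxLDL, 9.04, 9.95, 10.1 and 9.49 TPM with tirzepatide and 8.99, 10.3, 10.2 and 8.87 TPM in control. The 2 groups with oxLDL spread widely, from 5.34 to 10.7 TPM, while the 2 without it stayed between 8.87 and 10.3 TPM. Its log2 change was -0.29 for the combination against control (SE 0.14, edgeR adjusted p = 0.222), -0.21 for oxLDL against control (SE 0.14, adjusted p = 0.463) and -0.27 for the combination against tirzepatide (SE 0.14, adjusted p = 0.411). Without control libraries 1 and 2 the values of Insig1 against control were -0.24 for the combination (adjusted p = 0.406) and -0.17 for oxLDL (adjusted p = 0.693). With only 116 to 243 counts per library, its intervals were the widest of the 8 genes.

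The early steps of the pathway gave no call. Hmgcs1 (ENSMUSG00000093930), the HMG-CoA synthase that feeds the mevalonate pathway, measured 21.9, 20.6, 21.5 and 22.4 TPM in the combination group, 23.4, 24.4, 23.6 and 22.1 TPM with oxLDL, 24.1, 23.7, 24.9 and 22.4 TPM with tirzepatide and 20.4, 21.4, 20.3 and 25.5 TPM in control. The groups overlapped, and control library 4 was the highest of all 16 in TPM. In CPM after TMM scaling that library was at 37.41, below tirzepatide libraries 1, 2 and 3 at 39.22, 38.98 and 40.06. The largest difference between groups for Hmgcs1 was tirzepatide against control, a log2 change of 0.12 (SE 0.06, edgeR adjusted p = 0.242).

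Idi1 (ENSMUSG00000058258), the isomerase that makes the reactive isoprene unit dimethylallyl diphosphate, has a close paralogue in Idi2, and how reads were shared between them was not tested. Idi1 measured 25.1 to 30.2 TPM in the combination group, 24.7 to 32.4 with oxLDL, 31.4 to 36.5 with tirzepatide and 27.9 to 31.4 in control. In TPM its combination libraries all lay below its tirzepatide libraries; in CPM after TMM scaling they overlapped, at 32.46 to 39.9 in the combination group and 35.35 to 41.31 with tirzepatide, and the log2 change from the counts was -0.13 (SE 0.07, edgeR adjusted p = 0.432). Idi1 and Srebf2 were the 2 of the 8 below without overlap in TPM in that comparison, where 4.4% of all genes were.

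None of the squalene and lanosterol steps passed. Fdft1 (ENSMUSG00000021273), the squalene synthase and the first enzyme committed to sterols, had means of 16.1 ± 1.18 TPM in the combination group, 15.2 ± 0.86 with oxLDL, 15.3 ± 0.59 with tirzepatide and 16.3 ± 1.12 in control (SD, n = 4 each). Its largest log2 change between groups was -0.10 for oxLDL against control (SE 0.07, edgeR adjusted p = 0.429). Sqle (ENSMUSG00000022351), the squalene epoxidase that is a rate-limiting step of the sterol branch, was the second most abundant gene at a mean of 61.0 TPM.

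Sqle measured 54.0, 62.2, 58.1 and 56.3 TPM in the combination group, 56.2, 58.5, 60.9 and 58.5 TPM with oxLDL, 68.1, 66.8, 62.9 and 61.1 TPM with tirzepatide and 53.9, 60.7, 68.8 and 68.7 TPM in control. The tirzepatide libraries lay above all but 1 of the combination libraries, and control library 1 was as low as the lowest combination library. The log2 change of Sqle was -0.13 for the combination against control (SE 0.06, edgeR adjusted p = 0.149), -0.11 for oxLDL against control (SE 0.06, adjusted p = 0.318) and -0.15 for the combination against tirzepatide (SE 0.06, adjusted p = 0.225). Without control library 1 the combination against control passed, at -0.19 for Sqle (adjusted p = 0.0269), and without control libraries 1 and 2 at -0.23 (adjusted p = 0.0213).

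Lss (ENSMUSG00000033105), the cyclase that folds squalene epoxide into lanosterol, had levels and counts that parted in 2 libraries. Its counts were 286, 329, 346 and 348 in the combination group, 357, 339, 351 and 376 with oxLDL, 335, 416, 452 and 381 with tirzepatide and 337, 352, 417 and 360 in control. Its level in TPM reached 19.97 in tirzepatide library 4 and 12.96 in combination library 3, against 7.68 to 11.5 TPM in the other 14. In those 2 libraries the ratio of Lss TPM to Lss CPM, here without TMM scaling, was 0.835 and 0.616, against 0.413 to 0.437 in the other 14, so the highest levels did not come with more counts. From counts, the log2 change of Lss was -0.23 for the combination against tirzepatide (SE 0.08, edgeR adjusted p = 0.196).

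Cyp51 (ENSMUSG00000001467), the demethylase that acts on lanosterol, averaged 16.9 ± 1.59 TPM in the combination group, 16.7 ± 1.04 with oxLDL, 18.2 ± 0.24 with tirzepatide and 16.7 ± 1.44 in control (SD, n = 4 each). The tirzepatide libraries, at 18.1 to 18.6 TPM, were close together and lay inside the range of the combination and control libraries. The largest log2 change of Cyp51 was 0.10 for tirzepatide against control (SE 0.06, edgeR adjusted p = 0.411).

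**Figure D2:**
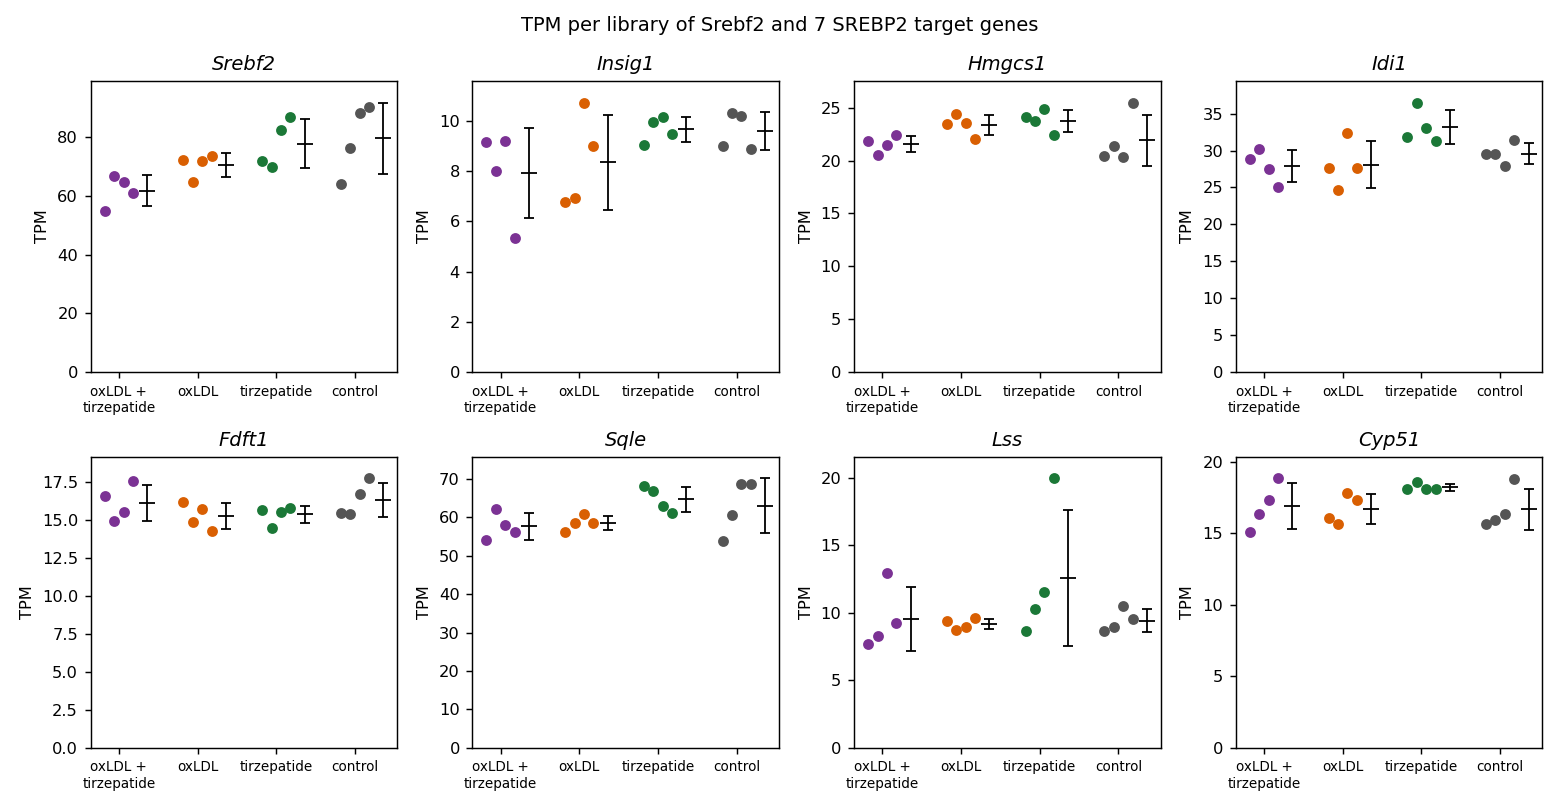
Level of each of the 8 genes in TPM, 1 panel per gene, with 1 point per library and the mean ± SD of the 4 libraries of each group; every y axis starts at 0. Srebf2 is lowest in the combination group at 61.8 TPM, and the tirzepatide point of Lss at 19.97 TPM stands above all others of that gene.

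The calls among the 8 genes were counted in each comparison, beside the share of all tested genes. For the combination against oxLDL, which asks what tirzepatide changed in oxLDL-treated cells, 0 of 8 passed by edgeR, 1 of them at an unadjusted p under 0.05, where 0.0353% of all tested genes passed (4 of 11319, all higher) and 1146 had an unadjusted p under 0.05. The median log2 change of the 8 was -0.03, against -0.0036 over all genes, and the estimates ran from -0.17 to 0.10. The 95% intervals of the 8 reached no lower than -0.39 and no higher than 0.24.

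For oxLDL against control, 1 of 8 was called lower, where 2.05% of all genes were called lower and 4.54% in either direction. The median of the 8 was -0.10, with 7 of 8 below 0, against a median of -0.0021 over all genes. The 7 genes that did not pass had estimates of -0.21 to 0.04 and intervals within -0.51 to 0.16. For tirzepatide against control, 0 of 8 passed by edgeR, where 4.08% of all genes passed. An unadjusted p under 0.05 was reached by 1 of the 8 and by 18.6% of all genes. The median of the 8 was 0.03, with 5 above 0, and the intervals lay within -0.32 to 0.28. DESeq2 likewise called 0 of the 8 in this comparison and in the combination against oxLDL.

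For the combination against tirzepatide, which is the oxLDL effect in cells that also had tirzepatide, 1 of 8 was called lower, where 0.777% of all genes were called lower and 1.54% in either direction. The median of the 8 was -0.14, with 7 of 8 below 0, against a median of -0.00035 over all genes. The 7 genes that did not pass had estimates of -0.27 to 0.05 and intervals within -0.57 to 0.19. By edgeR, 3 of the 8 (Srebf2, Sqle and Lss) had an unadjusted p under 0.05, as did 13.8% of all genes. For the combination against control, 1 of 8 was called lower against 4.25% of all genes called lower and 8.94% in either direction, and the median was -0.11. Here 2 of the 8 and 23.4% of all genes had an unadjusted p under 0.05 by edgeR. Srebf2 was the gene called in each of these 3 comparisons. The comparisons against control share the control libraries, and those of the combination share its libraries. The test of whether the oxLDL effect differed with tirzepatide called 0 of 8 by edgeR and by DESeq2, where 0.0707% of all genes passed by edgeR. None of the 8 had an unadjusted p under 0.05 by edgeR, where 10.3% of all genes did.

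**Figure D3:**
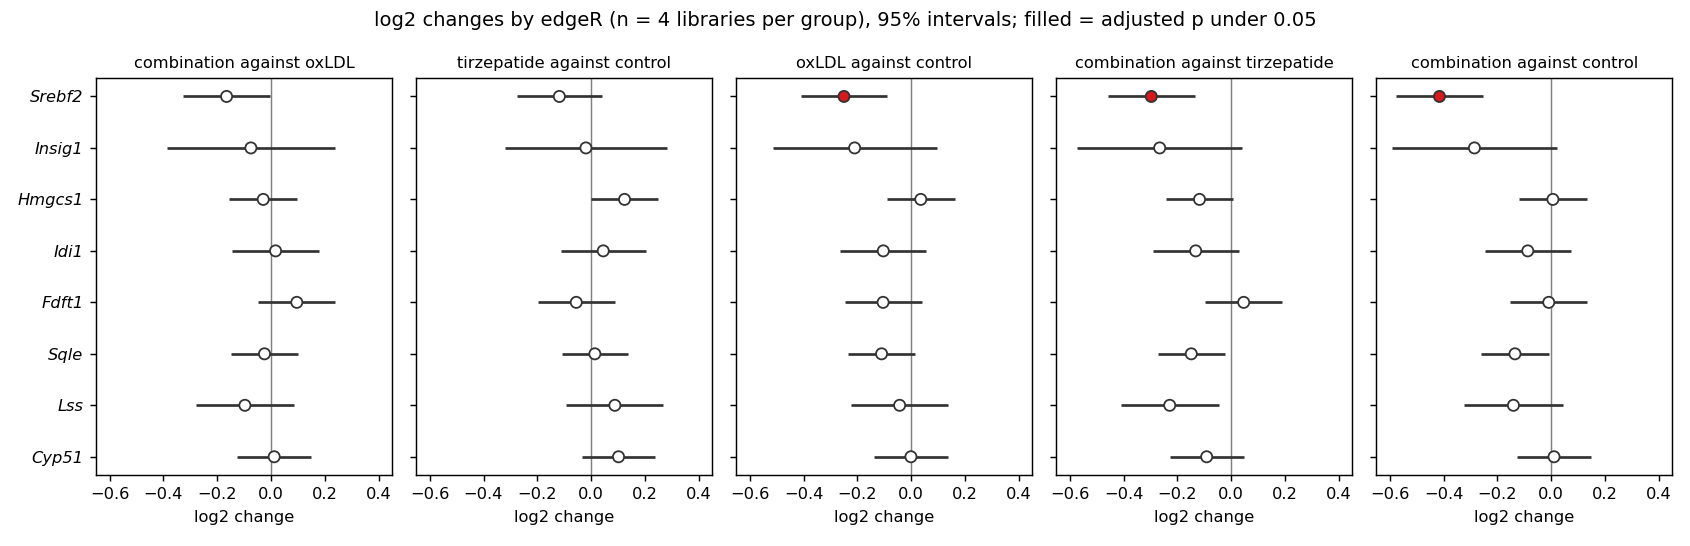
Log2 change of each of the 8 genes in 5 comparisons, with 95% intervals from the edgeR fit before adjustment; filled points mark an adjusted p under 0.05. Srebf2 is the filled point in 3 comparisons, at -0.25, -0.30 and -0.42, and the intervals of Hmgcs1 and Cyp51 against control all include 0.

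Genes around the pathway were grouped in lists by known role. Of 15 other enzymes of cholesterol synthesis, none was called for oxLDL against control or for the combination against tirzepatide, with medians of -0.06 and -0.05. Dhcr7, which reduces 7-dehydrocholesterol in the last step to cholesterol, was called lower with tirzepatide than in control, a log2 change of -0.38 (SE 0.09, edgeR adjusted p = 0.014), and in the combination against control, -0.29 (adjusted p = 0.0346). Dhcr7 was 1 call among 15 genes in each, where 4.08% and 8.94% of all genes were called in either direction. Its mean level was 16.6 ± 2.44 TPM in the combination group, 15.7 ± 0.34 with oxLDL, 16.9 ± 1.86 with tirzepatide and 18.9 ± 0.98 in control (SD, n = 4 each). Its levels and counts parted. The counts that the test used, here before scaling for depth, were 240 to 271 in the combination group, 232 to 291 with oxLDL, 231 to 258 with tirzepatide and 275 to 346 in control. The tirzepatide libraries thus lay below every control in counts but overlapped them in TPM. How many of all genes did so was not counted. Both Dhcr7 calls ended without control libraries 1 and 2, at adjusted p of 0.0574 and 0.0755; leaving out tirzepatide library 1, control library 2 or control library 3 also ended the tirzepatide call (adjusted p = 0.0523 to 0.0668), and combination library 1, 2 or 3 or control library 2 or 3 the combination call (adjusted p = 0.0682 to 0.122), which 4 of 11 other alternatives also ended (up to 0.0868). None of the 9 enzymes of the isoprenoid branch was called in any comparison.

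Among 13 genes for SREBP processing and sterol-regulated degradation, Srebf1, which encodes SREBP1 and is itself an LXR target, was called lower in the combination than in control, -0.35 (SE 0.09, edgeR adjusted p = 0.0185), and lower with oxLDL than in control, -0.33 (SE 0.09, adjusted p = 0.0346). Srebf1 was 1 call among 13 genes in each, where 4.25% and 2.05% of all genes were called lower and 8.94% and 4.54% in either direction. Its level was 25.0 ± 5.34 TPM in the combination group, 25.3 ± 2.04 with oxLDL, 32.6 ± 2.36 with tirzepatide and 31.9 ± 4.28 in control (SD, n = 4 each). The oxLDL call for Srebf1 ended without any 1 of 7 libraries, all 4 of oxLDL and control libraries 2, 3 and 4 (adjusted p = 0.0587 to 0.114), and the combination call ended without combination library 1 or 4 or control library 3 (adjusted p = 0.0556 to 0.0708), or in a fit of the compared groups alone (adjusted p = 0.0695). Without control libraries 1 and 2, Srebf1 was -0.45 in the combination (adjusted p = 0.0076) and -0.43 with oxLDL (adjusted p = 0.0172). No other gene of that list, which holds Scap, Insig2 and the proteases that cut SREBPs, was called in any comparison.

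Of 8 LXR genes, 4 were called lower with oxLDL than in control, where 2.05% of all genes were called lower and 4.54% in either direction. The other 4 did not pass, and the median of the 8 was -0.20 against -0.0021 over all genes. Abca1, the exporter that loads cholesterol onto apolipoprotein A-I, had 129 ± 19.6 TPM in the combination group, 111 ± 5.12 with oxLDL, 169 ± 3.77 with tirzepatide and 158 ± 8.41 in control (SD, n = 4 each). Its log2 change was -0.52 for oxLDL against control (SE 0.06, edgeR adjusted p = 1.3e-05) and -0.37 for the combination against tirzepatide (adjusted p = 0.00238). Abcg1, which exports cholesterol to high-density lipoprotein, fell by 0.51 (adjusted p = 0.000337) and by 0.42 (adjusted p = 0.00587) on the log2 scale in those comparisons. Mylip, a ubiquitin ligase for lipoprotein receptors, was lower with oxLDL by a log2 change of -0.49 (adjusted p = 0.000841). Combination library 2 had the highest TPM of its group for Abca1, Abcg1, Mylip and Srebf1, but not for the other 4 genes. Abca1 was at 157 TPM there, against 113 to 125 in the other combination libraries, and Abcg1 at 203 against 128 to 157. Mylip was at 37.98 against 25.28 to 28.56 and Srebf1 at 31.29 against 18.3 to 25.96. With 1 library left out, the combination against control gave Abca1 -0.42 to -0.26, Abcg1 -0.56 to -0.34 and Mylip -0.45 to -0.23. The combination against tirzepatide called Abca1 and Abcg1, the Abcg1 call ending without combination library 4 (adjusted p = 0.0503). The combination against control called Abca1, Abcg1, Mylip and Srebf1, of which the Mylip call ended without combination library 1, 3 or 4 or control library 2 or 3 (adjusted p = 0.0557 to 0.12) and under 4 of 11 other alternatives (adjusted p = 0.0519 to 0.16), among them the fit without control libraries 1 and 2, at -0.24 for Mylip (adjusted p = 0.134). Without those controls oxLDL against control gave Abca1 -0.53 (adjusted p = 0.000166), Abcg1 -0.55 (adjusted p = 0.00138) and Mylip -0.44 (adjusted p = 0.0158), and the combination against control gave Abca1 -0.32 (adjusted p = 0.0113) and Abcg1 -0.44 (adjusted p = 0.00577).

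Of 12 tested genes for sterol uptake and transport, 2 were called lower with oxLDL than in control, 1 lower and 1 higher in the combination than with tirzepatide, and 3 lower and 1 higher in the combination than in control. Over all genes, 4.54%, 1.54% and 8.94% were called in these comparisons in either direction, and 2.05%, 0.777% and 4.25% were called lower. Gramd1b, which carries cholesterol from the plasma membrane to the endoplasmic reticulum, was lower with oxLDL than in control by a log2 change of -0.32 (SE 0.05, edgeR adjusted p = 8.61e-05). Its level was 119 ± 5.04 TPM in the combination group, 120 ± 7.95 with oxLDL, 141 ± 2.63 with tirzepatide and 147 ± 8.78 in control (SD, n = 4 each). Gramd1b was also lower in the combination than in control, -0.29 (adjusted p = 0.000231), and than with tirzepatide, -0.20 (adjusted p = 0.0224). The second of these calls ended without combination library 1, 3 or 4 or tirzepatide library 2, 3 or 4 (adjusted p = 0.0701 to 0.117) and under 2 of 11 other alternatives (adjusted p = 0.0731 and 0.0734). With control libraries 1 and 2 left out, Gramd1b was -0.29 in the combination (adjusted p = 0.00215) and -0.32 with oxLDL (adjusted p = 0.00138), both against control. Lipa, the lysosomal acid lipase that frees cholesterol from lipoprotein esters, was higher in the combination than with tirzepatide, 0.23 (SE 0.04, edgeR adjusted p = 0.00471), and than in control, 0.17 (adjusted p = 0.0109). The call of Lipa against control ended without combination library 1 (adjusted p = 0.0636) and under 3 of 11 other alternatives (adjusted p = 0.0582 to 0.131), among them the fit without control libraries 1 and 2, at 0.15. Stard4, a cytosolic sterol carrier, was lower in the combination than in control, -0.31 (SE 0.08, adjusted p = 0.0222), a call that ended without combination library 1 or 4 or control library 3 (adjusted p = 0.0667 to 0.0839) and under 2 of 11 other alternatives (adjusted p = 0.0626 and 0.0933). Stard4 was at -0.37 without control libraries 1 and 2 (adjusted p = 0.0215).

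Cholesteryl ester turnover held 2 genes that rose with oxLDL. Soat1, which esterifies cholesterol for storage, was higher with oxLDL than in control, 0.21 (SE 0.04, edgeR adjusted p = 0.00658), as was Nceh1, a neutral cholesteryl ester hydrolase, 0.36 (SE 0.07, adjusted p = 0.00368). They were the 2 calls among 6 tested genes of that list, where 4.54% of all genes were called. Nceh1 was at 0.36 without control libraries 1 and 2 (adjusted p = 0.0191). Soat1 averaged 159 ± 9.44 TPM in the combination group, 176 ± 13.9 with oxLDL, 152 ± 3.39 with tirzepatide and 139 ± 11.7 in control (SD, n = 4 each). The call of Soat1 ended without those controls (log2 change of Soat1 0.15, adjusted p = 0.132).

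Of 11 fatty acid genes listed as SREBP1 targets, the desaturases Scd1 and Scd2 were called lower in all 3 comparisons that add oxLDL. Over all genes, 2.05%, 0.777% and 4.25% were called lower for oxLDL against control, the combination against tirzepatide and the combination against control. The other 9 genes of the list, Fasn, Acaca and Acly among them, did not pass. The medians of the 11 were -0.08, -0.04 and -0.10 in the same order. Scd2 had 168 ± 40.3 TPM in the combination group, 145 ± 6.14 with oxLDL, 244 ± 19.3 with tirzepatide and 238 ± 22.3 in control (SD, n = 4 each). Its log2 change was -0.70 for oxLDL against control (SE 0.09, edgeR adjusted p = 1.3e-05), -0.47 for the combination against tirzepatide (adjusted p = 0.00409) and -0.49 for the combination against control (adjusted p = 0.000819). Combination library 2 was at 228 TPM of Scd2, against 144, 148 and 150 in the other combination libraries. It also had 185 counts of Scd1, against 97, 89 and 83. With 1 library left out, Scd2 ran from -0.65 to -0.41 for the combination against tirzepatide. Without control libraries 1 and 2, Scd2 was -0.76 for oxLDL (adjusted p = 0.0001) and -0.55 for the combination (adjusted p = 0.00175), both against control. Scd1 was a low gene whose groups overlapped in TPM, while its counts were 83 to 185 in the combination group, 86 to 108 with oxLDL, 168 to 202 with tirzepatide and 153 to 219 in control. From these counts Scd1 was at -0.87 for oxLDL against control (adjusted p = 0.00255) and -0.67 for the combination against control (adjusted p = 0.0136), the second ending without combination library 4 or control library 3 (adjusted p = 0.0588 and 0.0603) or in a fit of the compared groups alone (adjusted p = 0.0613). Leaving out control libraries 1 and 2 gave Scd1 -0.98 for oxLDL (adjusted p = 0.00567) and -0.78 for the combination (adjusted p = 0.0158). Its call for the combination against tirzepatide, -0.65 (adjusted p = 0.0464), ended without any 1 of 13 libraries, all but combination library 2 and control libraries 1 and 3 (adjusted p = 0.0573 to 0.182), and under 2 of 11 other alternatives (adjusted p = 0.109 and 0.205). No gene of these lists was called for the combination against oxLDL or for the difference of the oxLDL effects.

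**Figure D4:**
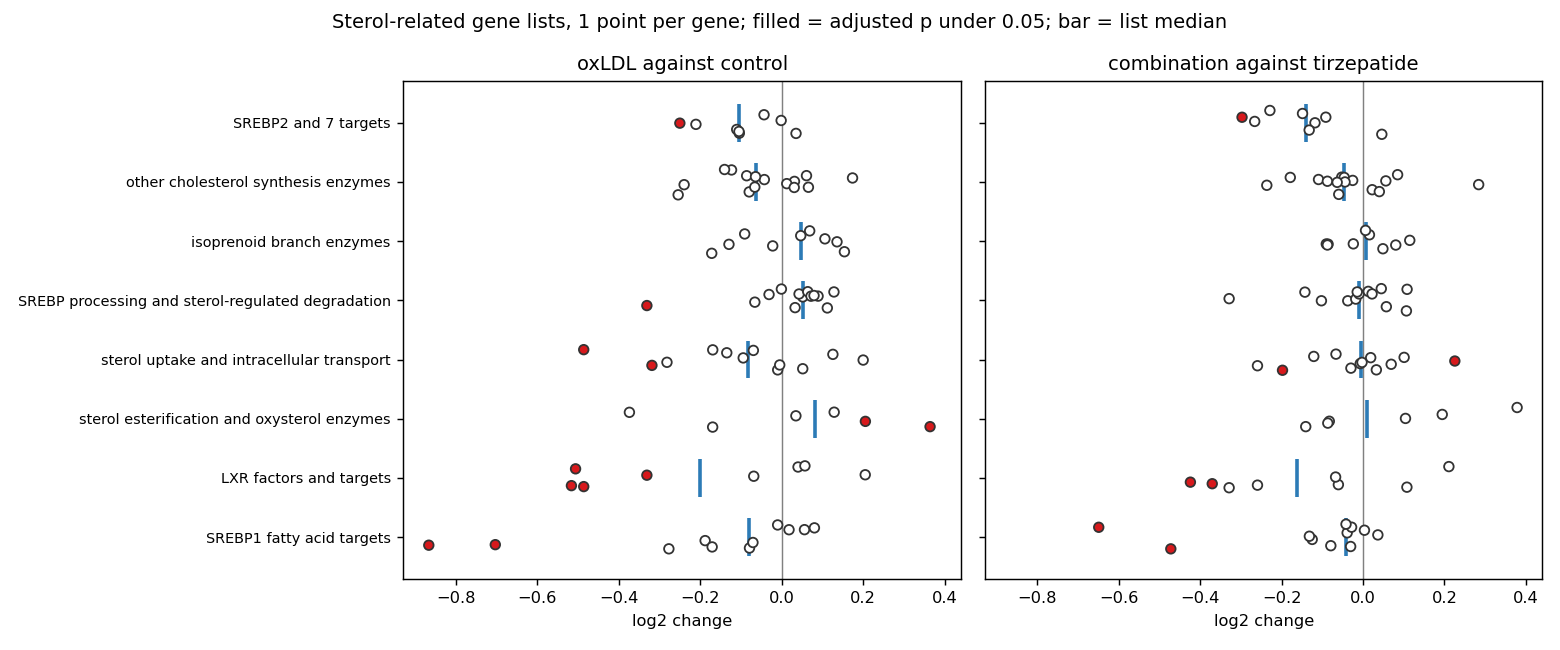
Log2 change of every tested gene of the 8 genes and of 7 surrounding lists, for oxLDL against control and for the combination against tirzepatide; 1 point per gene, filled where the adjusted p was under 0.05, with a bar at each list's median. The 8 genes and the other synthesis enzymes lie close to 0 around medians of -0.10 and -0.06 with oxLDL, while Abca1, Abcg1, Scd1 and Scd2 lie furthest below in both panels; Mylip and Srebf1 belong to 2 lists each.

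The 8 genes did not move as a block across the 16 libraries. Over their 28 pairs, Pearson correlations of log2 CPM ran from -0.22 to 0.64 with a median of 0.17, and once each group's mean was removed the median was -0.04, with 13 of 28 above 0. The libraries share normalisation and groups, and these values are descriptive. Set against the mean of the other 7 genes, Sqle was at r = 0.64 and Srebf2 at 0.60, while Fdft1 was at -0.10. The closest partner of Srebf2 was Sqle, at r = 0.64 and rho = 0.61.

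Outside the lists, the 5 genes whose log2 CPM most resembled the mean of the 8 over 16 libraries were Sft2d2 (r = 0.92, rho = 0.91), Slc1a4 (r = 0.90), Themis2 (r = 0.87), Col14a1 (r = 0.86) and Ccnd2 (r = 0.85). After removal of group means these correlations were 0.75, 0.60, 0.50, 0.44 and 0.65 in the same order of genes. They were picked from all tested genes for their likeness, so their values describe the choice.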

How the data were processed

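The data were one table of 21965 genes in 16 libraries, made from bead-captured mRNA per the labels' protocols. Per the submitters' processing notes, the tools were RSEM, StringTie 1.3.1, Bowtie2 2.2.8 and fastp 0.18.0, with builds GRCm39 and mm39; annotation release and treatment of strand are not given in the sources used here. The authors deposited expected counts per gene, not scaled between libraries, and TPM per gene, scaled within each library for length and depth. Levels are quoted in TPM and tests used the counts, rounded to whole numbers (6.799% were not whole).

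Genes were filtered with edgeR's filterByExpr (minimum count 10), which all 8 genes passed, scaled by TMM and fitted in one quasi-likelihood model of 16 libraries and 4 group means (R 4.3.3, edgeR 4.0.16), without a block. The difference of the oxLDL effects was a contrast of all 4 groups. Intervals of 95% are for single genes, before adjustment. Alternatives used DESeq2 1.42.0, limma 3.58.1, other filters, covariates, a replicate block and libraries left out. The procedure was tested on simulated data. Replicate pairs differed beyond sampling noise (chi-square per degree of freedom 2.713 to 17.75 over 24 pairs), so no 2 libraries were counted as 1.

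Genes named are the 8, every gene of the sterol and fatty acid lists that was called, and the 5 most like the mean of the 8. The genes and lists were chosen with earlier results of these data known, as was the choice of control libraries 1 and 2 to leave out. A total of 3 genes were left out of the lists, their counts and the figures, and are not reported here; uncalled list genes enter as counts and medians. Promoter windows are from RefSeq on GRCm38.p6, another build than the table's, and were matched by symbol. Sqle and Fdft1 were not searched.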

Additional observations from a re-analysis of the deposited data

Results flagged for a closer look

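Over 32 sets of 4 libraries (8 genes in 4 groups), 1 held a library far from the other 3 for its group's range: Cyp51 in tirzepatide library 2 was at 18.58 TPM, against 18.09 to 18.1 TPM in the other tirzepatide libraries, and the gap took up 0.973 of the range, above Dixon's critical value. Chance alone flags about 1 set in 20, and the whole range of these 4 Cyp51 libraries was narrower than that of Cyp51 in any other group.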

How the results depend on the processing

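For the 8 genes, 1201 of 1288 values under alternatives kept their direction and their side of the threshold, 63 changed sign, and no called value changed sign. Leaving out 1 library at a time gave 0 to 1 of the 8 called for oxLDL against control, 0 to 1 for the combination against tirzepatide and 1 to 2 for the combination against control; it gave 0 in the other comparisons. With the mitochondrial share as a covariate, tirzepatide against control called 1 gene, Srebf2. Under limma after quantile normalization the combination against tirzepatide called 0 of the 8, with Srebf2 at -0.30 (adjusted p = 0.0514). Without control libraries 1 and 2 the combination against control called 2, Srebf2 and Sqle.

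Estimates near 0 changed sign. Without the 4 libraries numbered 1, Idi1 was -0.021 for the combination against oxLDL, Sqle -0.065 for tirzepatide against control, Hmgcs1 -0.020 for the combination against control, and the difference of the oxLDL effects was 0.049 for Sqle and 0.020 for Srebf2. Without controls 1 and 2, tirzepatide against control gave Sqle -0.082 and Insig1 0.022, the combination against control gave Cyp51 -0.031, and the difference of effects was 0.059 for Sqle and 0.070 for Srebf2. With the mitochondrial share as a covariate, Idi1 was -0.0097 for the combination against oxLDL, Sqle -0.015 for tirzepatide and Cyp51 -0.0032 for the combination against control, and the difference of effects was 0.0083 for Sqle and 0.11 for Srebf2. In the fit with the acinar share, tirzepatide gave Sqle -0.016 and Insig1 0.053, the combination against control gave Hmgcs1 -0.0051 and Cyp51 -0.026, and the difference of effects was 0.0063 for Srebf2. Quantile normalization gave Cyp51 0.0011 for oxLDL, Sqle -0.0087 and Insig1 0.016 for tirzepatide, and Fdft1 0.0076 for the combination against control. Without a count filter Cyp51 was 0.0010 for oxLDL, and with a filter of 5 TPM Hmgcs1 was -0.000405 for the combination against control. The cause of these changes was not tested.

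With 1 library left out, ranges that crossed 0 were, for the combination against oxLDL, Cyp51 -0.040 to 0.049, Idi1 -0.038 to 0.062 and Insig1 -0.17 to 0.077. For oxLDL they were Lss -0.066 to 0.0058 and Cyp51 -0.021 to 0.040, and for tirzepatide Sqle -0.038 to 0.048 and Insig1 -0.074 to 0.018. For the combination against control they were Hmgcs1 -0.029 to 0.031, Cyp51 -0.043 to 0.051 and Fdft1 -0.054 to 0.0096. For the difference of effects they were Sqle -0.079 to 0.013, Idi1 -0.080 to 0.021, Insig1 -0.14 to 0.10 and Srebf2 -0.090 to 0.026.

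Counts over all genes also moved: 2 to 33 genes for the combination against oxLDL (4 as reported), 307 to 778 for oxLDL (514), 119 to 829 for tirzepatide (462), 58 to 444 for the combination against tirzepatide (174), 410 to 1553 for the combination against control (1012) and 1 to 56 for the difference of effects (8). Pairing of the libraries by the labels' replicate numbers was weak. Deviations were correlated above 0.1 in 4 of 24 same-number pairs, and 6 of 16 libraries were most like their own number. The median correlation was 0.048 for same-number pairs, from -0.11 to 0.26, and -0.013 for pairs of different number. With the number as a replicate block, every comparison called more genes. The combination against oxLDL called 17 genes, oxLDL against control 734 and tirzepatide against control 750. The combination against tirzepatide called 378, the combination against control 1357 and the difference of effects 29. The members called were the same number in each comparison, and Srebf2 with oxLDL was -0.25 (edgeR adjusted p = 0.00109). Insig1, at 116 to 243 counts, had the widest intervals of the 8 genes, so a change had to be larger to be seen in Insig1 than in the others.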
